A study of Rhagoletis pomonella with 50 samples.

Results

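The 200 shortest features expressed in the pupal central nervous system (CNS) of the fly Rhagoletis pomonella are described here. They were chosen by length and detection alone. A feature, which is a gene model in the files, counted as expressed where its expected count (RSEM's estimate of its reads, which need not be whole) was 10 or more in at least 25 of the 50 libraries. Of 29399 features, 12119 met this, and the 200 with the smallest mean length are the short features. Neither host nor month entered the choice. The 12119 features and the other 11919 serve as comparison.

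The flies came from infested apple and infested hawthorn fruit of 1 Illinois locality, and apple is the derived host of this species while hawthorn is its native one. All pupae had 10 days at about 24 °C with 14 h of light and 10 h of dark to pupate and enter diapause, and then lay at 3.5 °C and 95% relative humidity. CNS tissue was pooled by 10 at 2, 3, 4, 5 and 6 months, with 5 pools of apple flies and 5 pools of hawthorn flies at each month (10 groups, 50 libraries of stranded mRNA, 100 bp single-end reads). The labels do not give how the pools relate to families or rearing batches, so p-values measure only the spread between these pools, which may be technical.

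Short mRNAs are a mixed class. In insects they include the messages of small ribosomal proteins, of mitochondrial proteins, of secreted peptides and of neuropeptide precursors, and gene models that an annotation holds only in part. In mRNA sequencing a short molecule gives few fragments and its fragments are easily lost when a library is size-selected, so libraries that differ in fragment size or RNA breakage differ along transcript length. For that reason each comparison of short features is set beside the length trend of the library it comes from. The identifiers (the word gene and a number) are not paired with names in the files and 0 of them matched the gene table used as reference, so no role is given to any feature.

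The libraries held 8718271 to 30540959 expected counts each, with a median of 14615585. Libraries 2 and 4 of hawthorn at 4 months stood apart. The short features took 3.74% and 3.01% of the counts there, against at most 2.16% in the other 48 libraries. Their TMM scaling factors were 0.651 and 0.728, and results that rest on them are given with and without them. The labels name no sequencing lane, so lane and index type were read from run information in the deposited data and are inferred. By that reading 6 lanes were shared unevenly among groups. Libraries of both hosts shared a lane only at 6 months (4 apple and 3 hawthorn libraries in lane 7), so within each other month lane and host cannot be told apart.

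The short features had mean lengths of 123 to 412 bp with a median of 343.5 bp, against a median of 1763 bp for the other expressed features. The shortest was gene9978 at 123 bp and the next was gene27912 at 153 bp. At the upper limit gene12027 was the last inside with 412 bp and 426 TPM (RSEM's level per length, scaled to the same sum in every library), and gene7574 was the first outside with 414 bp and 6.22 TPM. The next feature outside, gene3398, had 415 bp and 330 TPM, so features next to the limit differed widely in level on both sides of it.

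Most annotated features of this size did not meet the count rule. The rule counts reads with no division by length, and a short model gives fewer reads at the same level. The contrast with longer models is therefore partly set by the rule, and a short model is also more easily left without any count. Of 2920 listed features up to the limit, 200 (6.85%) were expressed, against 45.0% of the 26479 longer ones. A total of 1531 short models (52.4%) had an expected count of 0 in all 50 libraries, against 25.6% of the longer models. The very shortest passed least often: 1 of 393 models of 100 to 150 bp passed, 7 of 202 of 150 to 200 bp and 75 of 598 of 350 to 400 bp. A model little longer than a read has few positions at which a read can start, so this gradient too is partly set by the rule. By this rule the 200 were a minority of their size class, weighted to its longer end. Whether short models were less often expressed at a given level was not tested.

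Their structure was simple. A single transcript was annotated for 182 of the 200 (91.0%), against 70.0% of the other expressed features. Among the next 200 in length, of 414 to 488 bp, the share was 92.0%, so it is not particular to the 200. For 99 short features (49.5%) the expected count was not whole in at least 25 libraries, which happens where RSEM divides reads among features, against 31.2% of the others and 41.0% of the next 200. For 83 (41.5%) it was whole in every library, against 60.1% of the others and 55.0% of the next 200. A feature with divided reads can trade counts with a near copy, and its values are uncertain in that sense.

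The length also acts on the unit. RSEM's effective length, the number of positions at which a read can start, was 98.0 to 98.7 bp below the length in every library. It was 24.6 bp for gene9978 and 314 bp for gene12027. TPM divides by it, so a read of gene9978 weighs more in TPM than its length alone would give. Counts and CPM (counts scaled to the TMM-scaled total of the library, with no division by length) do not use it, and all tests below were made on counts.

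The choice itself bears on their level. A short feature reaches a count of 10 only at a high level per length, so the TPM of the 200 is partly set by the rule and is given as a description. Their median level over the 50 libraries was 13.6 TPM, against 12.1 TPM for the next 200 in length and 5.19 TPM for all other expressed features. In all, 35 of them (17.5%) exceeded 100 TPM, against 18.5% of the next 200 and 5.97% of the others. Their median mean count was 45.8, against 64.8 for the next 200 and 131 for the others. Together the 200 held a median of 1.48% of a library's counts and 6.13% of its TPM, and the next 200 held 2.36% and 6.77%.

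**Figure D1:**
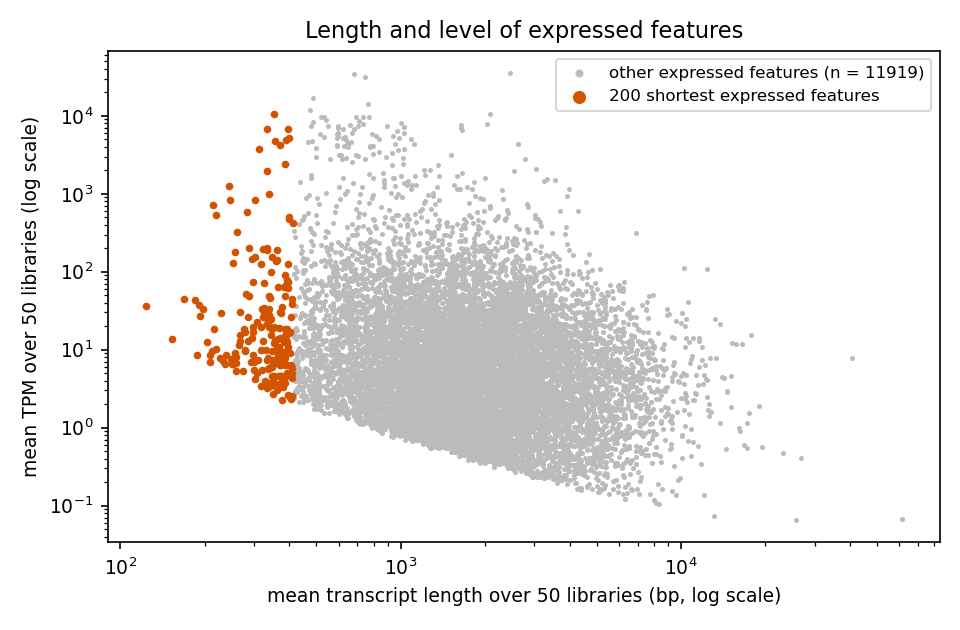
Mean level in TPM (vertical, log scale) against mean length in bp (horizontal, log scale) of the 12119 expressed features, 1 point each, over 50 libraries. The 200 short features (orange, 123 to 412 bp) reach from 2.24 to 10518 TPM, and the lower edge of the cloud, which the count minimum sets, falls with length.

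A handful of features carried most of these reads. The 8 most abundant short features held 76.7% of all counts of the 200. The most abundant, gene14712 (352 bp, 1 transcript, counts whole in every library), had 10518 ± 2154 TPM (SD, n = 50), the eighth highest mean level of all features. Next came gene9522 (396 bp) with 6761 ± 2049 TPM and gene11880 (332 bp) with 6707 ± 1806 TPM, both with divided reads in all 50 libraries and with levels that overlapped each other.

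Across groups gene14712 averaged 9166 ± 1290, 9499 ± 862, 9605 ± 1426, 10038 ± 1546 and 9166 ± 925 TPM in apple flies at 2, 3, 4, 5 and 6 months (SD, n = 5 each). In hawthorn flies it averaged 12174 ± 1367, 10701 ± 1285, 14043 ± 3857, 10609 ± 1579 and 10178 ± 1376 TPM at these months. The hawthorn means were the higher ones at every month. Individual libraries overlapped between hosts, with 7521 to 11743 TPM in the 25 apple libraries and 9207 to 20114 TPM in the 25 hawthorn libraries. The highest value was library 2 of hawthorn at 4 months.

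At the low end, gene9978 had rounded counts of 0 to 51 per library and reached 10 in 28 libraries by its expected counts. It had 41.8 ± 20.7 TPM in apple flies and 30.8 ± 30.2 TPM in hawthorn flies (SD, n = 25 each), and libraries of both hosts held 0 counts. Its mean host difference of 0.24 (log2, SE 0.31, edgeR adjusted p = 0.619) was smaller than its standard error, and it was called in none of the 11 comparisons below. Low counts of this kind were common among the short features: 85 of the 200 (42.5%) had 10 or more counts in all 50 libraries, against 55.5% of the next 200 in length and 71.0% of the other expressed features. Their median biological coefficient of variation was 0.331, against 0.310 for the next 200 and 0.254 over all 13862 features tested.

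The first question was whether short features moved with the length trend of their library. For each library and feature the log2 CPM was taken as a deviation from the feature's mean over the 50 libraries, and a straight line of this deviation on log2 length was fitted over the features outside the 200. The slope ran from -0.293 to 0.165 log2 CPM per doubling of length. A negative slope means that shorter features were high in that library. The median deviation of the 200 had the sign opposite to the slope in 42 of 50 libraries. It was above 0 in 19 of the 22 libraries with a negative slope and below 0 in 23 of the 28 with a positive slope. The slope was computed without the short features, but both measures share the library's scaling and depth.

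**Figure D2:**
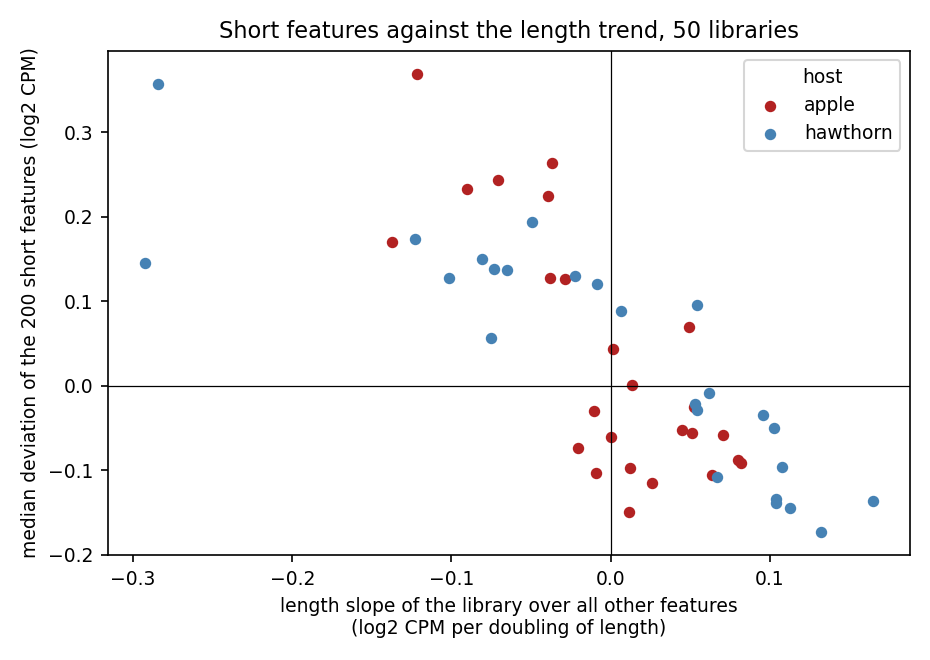
Median deviation of the 200 short features from their own means (log2 CPM, vertical) against the length slope of the other features (log2 CPM per doubling of length, horizontal), 1 point per library, apple red and hawthorn blue. Points run from upper left to lower right, and the leftmost points, at -0.293 and -0.284, are libraries 4 and 2 of hawthorn at 4 months, the first of which lies below the course of the rest.

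The line did not account for the whole movement. The SD of the short features' median over the 50 libraries was 0.140, and it was 0.127 after the line was subtracted and 0.112 after a curve (natural spline) was subtracted. The medians lay closer to the line than to 0 in 29 libraries, and closer to the curve than to 0 in 33. In the outlying hawthorn libraries 2 and 4 of 4 months the line predicted 0.53 and 0.52, whereas the measured medians were 0.36 and 0.15. The trend bent there at the short end, and the curve predicted 0.09 and 0.02.

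By group the length slope averaged -0.030 ± 0.064, -0.001 ± 0.055, 0.006 ± 0.059, -0.015 ± 0.077 and 0.031 ± 0.047 in apple flies at 2 to 6 months (SD, n = 5 each). In hawthorn flies it averaged -0.057 ± 0.050, 0.029 ± 0.057, -0.128 ± 0.166, 0.096 ± 0.050 and 0.069 ± 0.084. The hawthorn mean at 4 months includes the outlying libraries 2 and 4, at -0.284 and -0.293, and without them it was -0.021 ± 0.110 (n = 3). The host difference in slope (apple minus hawthorn) at 4 months was 0.134 with these libraries and 0.028 without them. It was -0.111 at 5 months, and between -0.039 and 0.028 at 2, 3 and 6 months.

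The median deviation of the 200 averaged 0.00 ± 0.13, 0.09 ± 0.14, 0.00 ± 0.13, 0.15 ± 0.17 and -0.09 ± 0.04 in apple flies at 2 to 6 months. In hawthorn flies it averaged 0.12 ± 0.05, 0.05 ± 0.11, 0.13 ± 0.17, -0.07 ± 0.11 and -0.06 ± 0.12. Without the outlying libraries the hawthorn mean at 4 months was 0.04 ± 0.15 (n = 3). At 5 months apple flies were above hawthorn flies, and at 2 and 4 months they were below, and the libraries of the hosts overlapped at each of the 5 months. After the curve was subtracted, the group means lay between -0.02 and 0.14 in all 10 groups. Hawthorn at 4 months had 0.14 with the outlying libraries and 0.08 without them, when apple at 5 months was highest at 0.10.

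The short features did not move as one body. They were split by mean count, a division chosen after these values were seen, into the 50 with the highest counts (mean count of at least 171) and the other 150. The median deviation of the 50 had an SD over libraries of 0.346, and that of the 150 had an SD of 0.097. The 50 averaged -0.21 ± 0.19, -0.03 ± 0.22, -0.12 ± 0.20, 0.26 ± 0.32 and -0.25 ± 0.14 in apple flies at 2 to 6 months. In hawthorn flies they averaged 0.24 ± 0.17, 0.07 ± 0.20, 0.46 ± 0.60, -0.16 ± 0.26 and -0.12 ± 0.30. At 2 months the groups did not overlap, with -0.41 to 0.03 in apple libraries and 0.08 to 0.52 in hawthorn libraries. At 4 months the hawthorn libraries spread from -0.34 to 1.19 and enclosed all apple libraries.

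Without the outlying libraries 2 and 4 the hawthorn mean of the 50 at 4 months was 0.07 ± 0.36 (n = 3). Features outside the 200 with a mean count at or above 171 had group means between -0.03 and 0.03, but TMM scaling centres such features, so nothing is read from this. The next 200 in length are the nearer comparison. Their median deviation had an SD over libraries of 0.180, above the 0.140 of all 200 short features. It had group means from -0.09 to 0.22, and it was 0.67 and 0.30 in the outlying libraries 2 and 4. The median deviation of the 50 had the sign opposite to the length slope in 42 libraries, as that of all 200 did. In the outlying hawthorn libraries 2 and 4 of 4 months the 50 were up by 1.19 and 0.90, whereas the other 150 stood at 0.20 and -0.02.

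**Figure D3:**
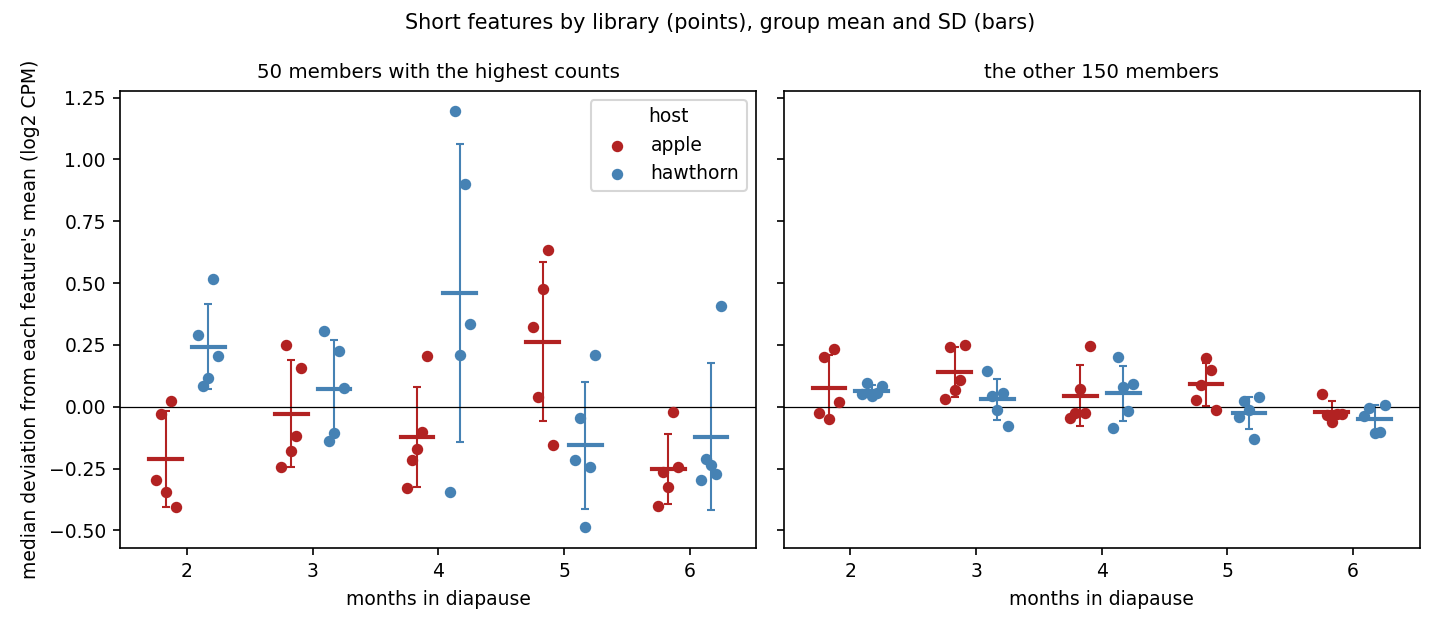
Median deviation (log2 CPM, vertical) of the 50 short features with the highest counts (left) and of the other 150 (right) against months in diapause, with apple red and left of hawthorn blue, points for the 5 libraries of each group and bars for mean and SD. The left panel ranges from -0.49 to 1.19 with hawthorn at 4 months at its top, and the right panel stays between -0.13 and 0.25.

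Averaged over the 5 months, 27 of the 200 short features differed between hosts, with 7 higher and 20 lower in apple flies. That is 13.5% of them, where 19.3% of all 13862 features tested were called, 9.77% higher and 9.52% lower (edgeR's quasi-likelihood test, Benjamini-Hochberg adjusted p under 0.05 over all tested features, used throughout). The median log2 fold change (apple minus hawthorn) was 0.00 for the 200 and 0.01 for all features, so the calls leaned to lower without a shift of the whole list. Of the 50 with the highest counts 20 were called, 17 of them lower, with a median of -0.22. Among other features of such counts 26.4% were called, with a median of -0.01. TMM scaling centres those features, so that median is not read as a contrast. The excess of calls among the 50 was not present without the outlying hawthorn libraries 2 and 4 of 4 months. Then 13 of the 50 (26%) were called, 4 higher and 9 lower, with a median of -0.14. Among the other features of such counts 32.6% were. With lane as a term 0 of the 200 and 0.151% of all features were called. Without the same outlying libraries, 27 of the 200 were again called (22.2% of all features), but 13 were higher and 14 lower, and 17 of the 27 were among the first 27.

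Among those lower in apple flies, gene27440 (284 bp, reads divided in all 50 libraries) had 61.2 to 129 CPM in apple libraries with a median of 87.1, and 82.5 to 294 CPM in hawthorn libraries with a median of 115. The ranges overlapped, and the apple mean was the lower one at each of the 5 months. The fold change was -0.53 (SE 0.11, adjusted p = 0.000428, edgeR), and without the outlying libraries it was -0.40. Over the 12 alternatives tried, leave-outs aside, its adjusted p ran from 2.25e-05 to 0.434, the highest ones coming with lane as a term.

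A second feature that was lower, gene14577 (334 bp, reads divided in all libraries), had 220.0 to 699 CPM in apple libraries with a median of 372, and 248 to 1847 CPM in hawthorn libraries with a median of 485. Its fold change was -0.58 (SE 0.15, edgeR adjusted p = 0.00611, range 0.000162 to 0.257 over 12 alternatives). The 2 highest hawthorn values, 1847 and 1511 CPM, were those of the outlying libraries 4 and 2 of 4 months, and the fold change without them was -0.45 (adjusted p = 0.0260). The most abundant short feature was also among the 20: gene14712 had a fold change of -0.52 (SE 0.11, edgeR adjusted p = 0.000833) and -0.38 without those libraries (adjusted p = 0.00250). Next in level, gene9522 had -0.58 (SE 0.14, adjusted p = 0.00296, and -0.35 without those libraries, 0.0174), and gene11880 had -0.35 (SE 0.14, adjusted p = 0.0638). These 3 are described for their level, not for their change.

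The 2 features named as higher in apple flies had few counts. For gene14162 (385 bp, whole counts) apple libraries had 0.623 to 6.77 CPM with a median of 2.49, and hawthorn libraries had 0.303 to 3.62 CPM with a median of 1.33. Its fold change was 0.88 (SE 0.19, edgeR adjusted p = 0.000894, range 0.000151 to 0.348 over 12 alternatives). For gene18434 (398 bp, reads divided) apple libraries had 0.899 to 6.70 CPM with a median of 3.44, and hawthorn libraries had 0.910 to 5.54 CPM with a median of 2.49. The fold change was 0.66 (SE 0.15, edgeR adjusted p = 0.00157, range 0.000409 to 0.471). In both features the hosts overlapped in range and differed in the middle of it, in the same direction at all 5 months.

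At 2 months 4 short features (2.00%) differed between hosts, all lower in apple flies, where 3.15% of all features tested were called, 1.68% higher and 1.46% lower. In a fit with lane 0 of them and 0.00721% of all features were called. The medians were -0.12 for the 200 and 0.01 for all features, and -0.42 for the 50 with the highest counts. All 4 had hosts that did not overlap. Called or not, 18 of the 200 (9%) had such hosts, where 7.85% of all features had. The count rested on single libraries. It was 0 without apple library 1, 3, 4 or 5 or hawthorn library 1 of 2 months (0.698% to 1.94% of all features), 2 without hawthorn library 4 of 2 months (1.08%), and 7 without library 2 or library 4 of hawthorn at 4 months (4.75% and 5.26%). Without both of these it was 10, where 8.34% of all features were called.

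Of the 3 at a log2 CPM of 1 or more, gene7382 (399 bp, reads divided in all libraries) differed most. It had 34.8, 56.6, 35.1, 52.4 and 19.7 CPM in apple flies, against 146, 91.6, 100.1, 78.0 and 108 CPM in hawthorn flies. Every apple library was below every hawthorn library. Its fold change was -1.40 (SE 0.37, edgeR adjusted p = 0.0280), and the adjusted p was 0.0556 to 0.101 without apple library 1, 3, 4 or 5 or hawthorn library 1. Next was gene27792 (398 bp, reads divided in 49 libraries), which had 98.0, 97.3, 100.3, 89.7 and 91.6 CPM in apple flies, against 179, 103, 153, 229 and 161 CPM in hawthorn flies. The apple libraries were close together and all lower, with a fold change of -0.79 (SE 0.22, edgeR adjusted p = 0.0309). It lost its call without any of the same 5 libraries or hawthorn library 4, where the adjusted p was 0.0550 to 0.129. Over 13 other alternatives the adjusted p of gene7382 ran from 0.00375 to 0.574 and that of gene27792 from 0.00897 to 0.803.

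At 3 months DESeq2 called 0 short features, a count that stands without its share of all features, so nothing is read from it. By edgeR 0 short features and 0.0% of all features were called. Unadjusted, 8 of the 200 (4%) had a p under 0.05, where 9.19% of all features had. Without the outlying hawthorn libraries 0 short features and 0.0628% of all features were called. The medians were 0.01 for the 200 and 0.00 for all features.

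At 4 months 25 short features (12.5%) differed, 2 higher and 23 lower in apple flies, where 9.45% of all features tested were called, 3.37% higher and 6.08% lower. The medians were -0.14 for the 200 and 0.02 for all features, and -0.75 for the 50 with the highest counts. These results rested on the outlying hawthorn libraries 2 and 4: without both, 0 short features were called, where 0.0418% of all features were, and the median of the 50 was -0.21. In a fit with lane as a term 0 short features and 0.0% of all features were called. Without 1 library at a time the count was 8 without hawthorn library 2 and 10 without hawthorn library 4 (2.41% and 2.39% of all features), 16 without apple library 1 or 2 (5.30% and 5.55%), and 52 without hawthorn library 1 (23.5%). The counts of all features moved along with those of the 200.

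Only gene19784 (346 bp, reads divided in all libraries) among the 25 had hosts that did not overlap. It had 31.3, 31.4, 31.4, 33.1 and 30.7 CPM in apple flies, against 38.0, 79.3, 36.2, 152 and 38.6 CPM in hawthorn flies. The apple libraries were nearly equal, and the hawthorn libraries fell into 3 between 36.2 and 38.6 CPM and the 2 outlying ones far above. The fold change was -1.12 (SE 0.23, edgeR adjusted p = 0.00238), and -0.28 without these 2 (adjusted p = 0.721). Over 13 alternatives its adjusted p ran from 0.000121 to 0.754, and it was 0.0576 without library 4 alone. For gene14712 the hawthorn libraries had 1903, 10272, 3506, 6222 and 3694 CPM at 4 months, so the same 2 libraries were the highest, while the apple libraries had 1677, 1802, 1962, 2336 and 2736 CPM. Its fold change at 4 months was -1.28 (SE 0.25, edgeR adjusted p = 0.00181), and without them -0.56 (adjusted p = 0.516).

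At 5 months 11 short features (5.50%) differed, all higher in apple flies, where 6.45% of all features tested were called, 2.9% higher and 3.55% lower. Hosts did not overlap in 6 of the 200 (3%), called or not, where they did not in 7.27% of all features. The medians of fold change were 0.20 for the 200 and 0.01 for all features. The direction was the reverse of that at 2 and 4 months, and so was the difference in length slope. The fit with lane as a term called 0 short features and 0.00721% of all features. The count was 5 without apple library 3 and 1 without apple library 4 (3.11% and 1.99% of all features). It was 6, 3 and 4 without hawthorn library 1, 3 or 4 (3.92%, 2.76% and 3.18%), 7 without apple library 1 of 2 months or hawthorn library 3 of 3 months (5.53% and 5.66%), and 17 without hawthorn library 4 of 4 months (10.0%). It was 21 without both outlying libraries of hawthorn at 4 months, where 12.9% of all features were called.

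Of these, gene27273 (336 bp, whole counts) had 6.99, 10.1, 9.52, 12.998 and 5.19 CPM in apple flies, against 3.17, 4.53, 1.86, 2.15 and 3.49 CPM in hawthorn flies. All apple libraries were above all hawthorn libraries, with a fold change of 1.55 (SE 0.39, edgeR adjusted p = 0.0136, and 0.0564 without apple library 4). For gene6794 (391 bp, reads divided in 18 libraries) apple flies had 20.9, 21.1, 42.2, 50.8 and 15.4 CPM, against 10.3, 13.5, 8.61, 8.45 and 11.0 CPM in hawthorn flies. The groups were again apart, apple libraries 3 and 4 standing highest, with a fold change of 1.53 (SE 0.34, edgeR adjusted p = 0.00605). Both kept their size with lane as a term (1.34 and 1.65) but lost the call (adjusted p = 0.408 and 0.238, the highest of 13 alternatives, the lowest being 0.00165 and 0.000374).

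At 6 months 1 short feature (0.500%) differed, where 0.541% of all features tested were called, 0.397% higher and 0.144% lower. Without the outlying hawthorn libraries 6 were called (2.25% of all features), and with lane as a term 0 were (0.159%). The feature was again gene7382, with 39.6, 161, 76.4, 166 and 44.9 CPM in apple flies, against 297, 303, 232, 188 and 347 CPM in hawthorn flies. The hosts did not overlap, with a fold change of -1.49 (SE 0.37, edgeR adjusted p = 0.0481). This adjusted p was next to the threshold: in 34 of the 50 fits that left out 1 library it was 0.05 or more, with 0.202 the highest, while the fold change over the 50 fits stayed between -1.76 and -1.29. In lane 7 alone, with 4 apple and 3 hawthorn libraries, the fold change was -1.19 (adjusted p = 0.504, in a range of 0.00459 to 1 over 14 alternatives).

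Over the 5 months 39 short features (19.5%) were called between hosts at some month, where 17.9% of all features tested were, 37 of the 39 at 1 month only and 2 at 2 of the months. Of the 39, 1 was called in both directions. Over the 8 pairwise comparisons 67 (33.5%) were called at least once and 133 never, where 44.9% of all features were called at least once.

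From 2 to 6 months in apple flies 14 short features (7%) changed, 7 higher and 7 lower at 6 months, where 15.6% of all features tested were called, 9.37% higher and 6.24% lower. The medians (6 minus 2 months) were -0.12 for the 200 and -0.02 for all features. In hawthorn flies 21 (10.5%) changed, 6 higher and 15 lower at 6 months, where 20.8% of all features were called, 12.1% higher and 8.73% lower. With the length trend of each library as an offset, described further on, the split was 11 higher and 7 lower. The medians there without the offset were -0.23 for the 200 and -0.02 for all features. In both hosts the 200 thus had a smaller share of calls than features at large, and their standard errors were larger (median SE 0.34 in apple and 0.36 in hawthorn flies, against 0.26 in each for all features). Called or not, 11 of the 200 (5.5%) had months that did not overlap in apple flies, where 14.3% of all features had. In hawthorn flies 18 (9%) had, where 17.2% of all features had. With lane as a term 0 short features (2.55% of all features) were called in apple flies and 12 (17.5%) in hawthorn flies. Without the outlying hawthorn libraries of 4 months 19 (20.4%) and 31 (26.0%) were called. The apple count was 9, 8 and 8 without apple libraries 4 and 5 of 2 months and 4 of 6 months (11.6%, 11.3% and 11.3% of all features), and the hawthorn count was 13 without hawthorn library 4 of 2 or of 6 months (16.8% and 16.3%).

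In apple flies the named changes were both decreases, since none of the higher ones had groups apart at a mean log2 CPM of 1 or more. For gene9979 (366 bp, reads divided in all libraries) the 6-month libraries had 2.37, 1.41, 1.11, 2.03 and 1.23 CPM, against 3.45, 3.38, 4.15, 3.61 and 4.72 CPM at 2 months. The groups were apart, with a fold change of -1.25 (SE 0.39, edgeR adjusted p = 0.0205), which lost its call without apple library 5 of 2 months or libraries 2 or 3 of 6 months (adjusted p = 0.0517 to 0.0566). For gene18705 (391 bp, reads divided in 48 libraries) they had 1.84, 3.13, 0.523, 0.593 and 0.749 CPM, against 4.42, 4.97, 5.65, 3.70 and 7.25 CPM at 2 months. Its fold change was -1.86 (SE 0.62, edgeR adjusted p = 0.0335), with 0.0506 to 0.0912 without apple library 3 or 5 of 2 months or library 3, 4 or 5 of 6 months. Without the single-index libraries, which are 6 libraries of 6 months in lane 7, the fold change of gene18705 was -1.04 (adjusted p = 0.479). Over 13 alternatives the adjusted p ran from 0.00297 to 0.421 for gene9979 and from 0.00790 to 0.479 for gene18705.

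The changes in hawthorn flies held under more settings. The clearest was gene22658 (392 bp, whole counts in every library, 16 to 136 counts). It had 1.495, 2.58, 2.81, 2.39 and 2.68 CPM at 6 months, against 7.23, 4.10, 5.58, 8.71 and 4.56 CPM at 2 months, so every 6-month library was below every 2-month library. Its fold change was -1.33 (SE 0.24, edgeR adjusted p = 4.21e-05), -1.25 with lane as a term (adjusted p = 0.00121) and -0.92 in lane 7 alone (adjusted p = 0.140, with 3 libraries of 6 months and 2 of 2 months). Also lower was gene13819 (345 bp, whole counts), with 1.57, 1.59, 1.87, 1.52 and 1.93 CPM at 6 months, against 4.34, 4.93, 3.20, 8.56 and 5.67 CPM at 2 months. Its 6-month libraries were close together and all below, with a fold change of -1.66 (SE 0.39, edgeR adjusted p = 0.00148, and 0.00503 with lane). Over 14 alternatives the adjusted p ran from 7.39e-07 to 0.140 for gene22658 and from 0.000301 to 0.0718 for gene13819.

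Higher at 6 months were gene20800 and gene19716. For gene20800 (386 bp, reads divided in 2 libraries) the 6-month libraries had 2.56, 3.26, 3.45, 4.31 and 1.68 CPM, against 0.904, 0.985, 0.831, 0.694 and 1.43 CPM at 2 months. The fold change was 1.63 (SE 0.47, edgeR adjusted p = 0.00943). For gene19716 (345 bp, reads divided in all libraries) they had 9.97, 8.49, 7.19, 5.57 and 13.2 CPM, against 4.22, 3.37, 2.02, 3.16 and 3.92 CPM. Its fold change was 1.39 (SE 0.32, edgeR adjusted p = 0.00109). In both, groups were apart and the call held with lane as a term (adjusted p = 0.00839 and 0.00806). In lane 7 alone the adjusted p was 0.0709 and 0.0662. Over 14 alternatives it ran from 0.00109 to 0.175 for gene20800 and from 4.46e-06 to 0.0662 for gene19716.

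Over all 5 months 13 short features (6.50%) changed in apple flies, where 20.3% of all features tested were called, and 58 (29.0%) changed in hawthorn flies, where 37.3% were called. The hawthorn count rested in part on the outlying libraries of 4 months: it was 33 without library 2 alone (30.1% of all features) and 27 without both (24.6% of all features), of which 21 were among the 58. The apple count was 8 without library 4 of 2 months or library 5 of 6 months (15.98% and 17.9% of all features) and 20 without hawthorn library 4 of 4 months (24.8%). Without both outlying libraries it was 30 (29.7% of all features). With lane as a term the counts were 2 in apple flies (3.39% of all features) and 31 in hawthorn flies (24.6%).

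The host difference itself varied with month in 11 short features (5.50%), where 4.91% of all features tested were called for a host-by-month interaction. The smallest adjusted p was that of gene19716 (0.00858, edgeR, F test over the 5 months), followed by gene7382 (0.0167). In apple flies gene19716 averaged 1.92 ± 0.53, 6.27 ± 1.47, 3.15 ± 1.03, 13.3 ± 6.22 and 4.06 ± 1.46 CPM at 2, 3, 4, 5 and 6 months (SD, n = 5 each). In hawthorn flies it averaged 3.34 ± 0.85, 5.42 ± 0.91, 7.63 ± 3.70, 7.28 ± 1.40 and 8.88 ± 2.90 CPM. The hawthorn mean was lowest at 2 months and highest at 6 months, whereas the apple mean alternated and was highest at 5 months.

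A like course was measured for gene7382. Apple flies averaged 39.7 ± 14.9, 132 ± 53.2, 102 ± 35.0, 297 ± 118 and 97.5 ± 61.7 CPM at 2 to 6 months. Hawthorn flies averaged 105 ± 25.5, 180.1 ± 57.0, 171 ± 100.4, 146 ± 20.5 and 273 ± 63.0 CPM. Apple means were lower at 2, 3, 4 and 6 months and higher at 5 months, when the apple mean was the highest of its 5 months. These 2 features were also those called in most pairwise comparisons, gene7382 in 5 and gene19716 in 4 of 8. From 2 to 6 months gene7382 rose in both hosts (1.29, SE 0.37, edgeR adjusted p = 0.0120 in apple flies, and 1.39, SE 0.37, adjusted p = 0.00524 in hawthorn flies).

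Both features have divided reads in all 50 libraries. Their interaction remained called without the outlying hawthorn libraries (adjusted p = 0.00926 and 0.00547, edgeR) and was not called with lane as a term (0.254 and 0.241, the highest of 12 alternatives, the lowest being 0.000128 and 0.000216). Leaving out 1 library at a time moved the count of 11 between 2, without apple library 4 of 5 months (1.15% of all features), and 39, without hawthorn library 1 of 4 months (15.9%), and by more than 1.5-fold in 21 of 50 fits. With lane as a term 0 short features and 0.0% of all features were called for the interaction, and without the outlying hawthorn libraries 6 were (3.36% of all features).

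**Figure D4:**
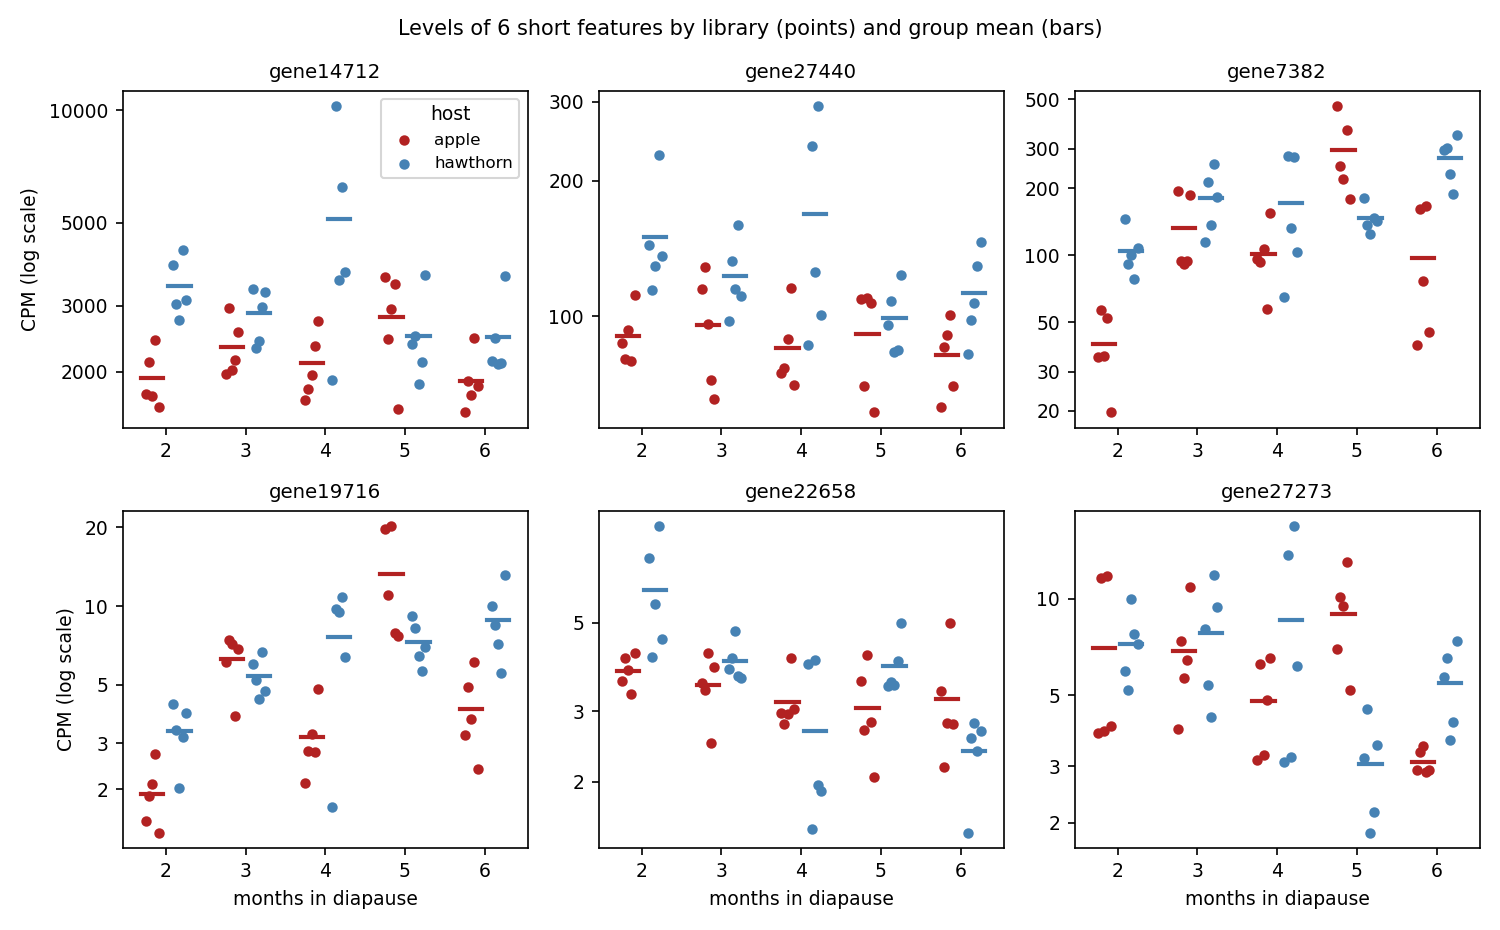
CPM (vertical, log scale, own range in each panel) of 6 short features against months in diapause, apple red and left of hawthorn blue, points for libraries and bars for group means (5 libraries each). gene14712 and gene27440 have their highest points in hawthorn at 4 months, gene7382 and gene19716 have apple maxima at 5 months (297 and 13.3 CPM), gene22658 is lowest in hawthorn at 6 months (2.39 CPM), and gene27273 is apart between hosts at 5 months.

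The comparison of hosts and months was then set against the length trend. Without correction, medians of fold changes ran along length in several comparisons. At 4 months the median (apple minus hawthorn) was -0.14 for the 200, -0.32 for the next length bin (1138 features, median 544 bp) and 0.21 for the longest bin (1139 features, median 5719 bp). At 5 months these were 0.20, 0.23 and -0.18. In hawthorn flies (6 minus 2 months) they were -0.23, -0.21 and 0.20, and in apple flies -0.12, -0.11 and 0.12. The 200 thus lay at the short end of a trend over all lengths, and at 4 months they lay nearer to 0 than the features next in length. The 4-month bins are given only with the outlying hawthorn libraries 2 and 4. Without these, the host difference in length slope at 4 months was 0.028 in place of 0.134. That in median deviation was -0.040 in place of -0.123 for the 200, and -0.043 in place of -0.221 for the next 200.

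The length trend of each library was then entered as an offset. It was fitted over all tested features, the 200 included, so medians along length shrink by construction and nothing is read from that. Values with the offset are given as a description of that fit. The median of the 200 was 0.03 at 5 months (0.04 for all features), -0.01 in apple flies from 2 to 6 months (-0.03) and -0.07 in hawthorn flies from 2 to 6 months (-0.07). At 4 months the offset moved the median of all features to -0.09, so the -0.12 of the 200 was within 0.02 of it. With the offset 29 short features were called for the mean host difference, where 21.1% of all features were. At 2, 3, 4, 5 and 6 months 8, 0, 24, 5 and 3 were called, where 4.5%, 0.0%, 10.0%, 5.48% and 1.09% of all features were. From 2 to 6 months 16 were called in apple flies and 18 in hawthorn flies, where 17.1% and 22.0% of all features were. For any change over months it was 13 and 53 (23.5% and 36.2% of all features), and for the interaction 6 (4.24%). With the slope itself as a covariate in place of the offset, 0 were called at 4 months and the median there was 0.067. With the offset, 13 of the 21 first called in hawthorn flies from 2 to 6 months remained called. The split changed to 11 higher and 7 lower, against 6 and 15 without the offset.

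For the 50 short features with the highest counts the offset made the median smaller in size at 2, 4 and 5 months, but not for the mean host difference or at 3 or 6 months. It was -0.24 for the mean host difference with the offset, against -0.22 without it, -0.14 against -0.10 at 3 months, and -0.16 at 6 months in both fits. At 2 months it was -0.36 against -0.42, at 4 months -0.68 against -0.75, and at 5 months 0.18 against 0.35. Other features of such counts, which TMM scaling centres before the offset, are given only as a description. With the offset they had -0.03 for the mean host difference and -0.05, -0.14 and 0.09 at 2, 4 and 5 months. Without the outlying libraries as well, the median of the 50 was -0.15, -0.38, -0.17 and 0.20 in the same order. At 2 months the 50 thus stayed low in apple flies in all these fits, and with lane as a term in place of the offset their median was -0.34, none (0) of them being called.

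**Figure D5:**
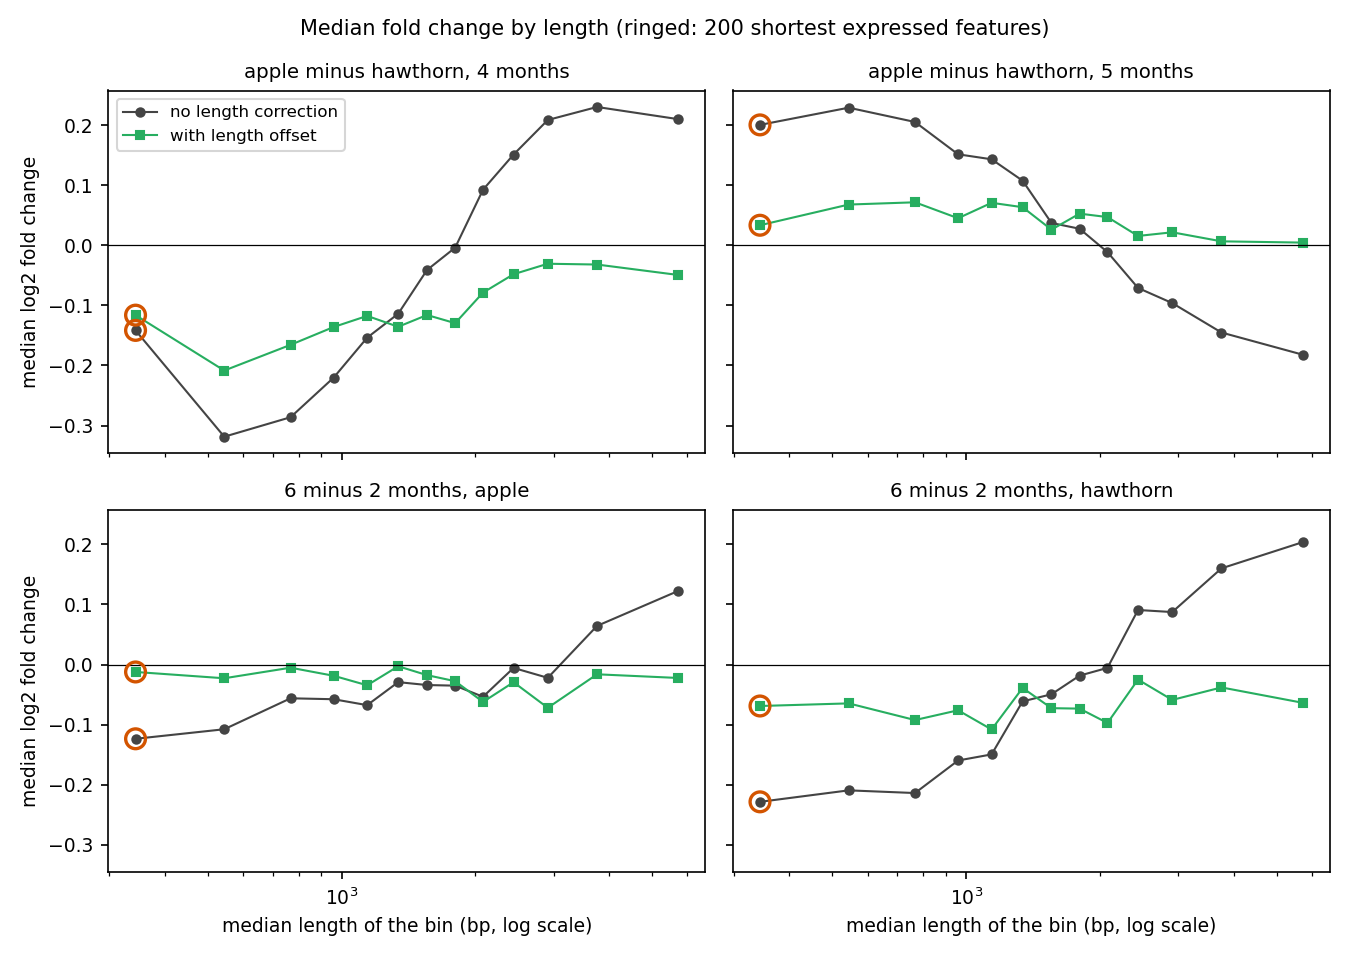
Median log2 fold change (vertical) against the median length of 13 bins of tested features (bp, horizontal, log scale) in 4 comparisons, without (grey circles) and with (green squares) the length offset. The ringed bin is the 200 short features, which lies at -0.14, 0.20, -0.12 and -0.23 without the offset and at -0.12, 0.03, -0.01 and -0.07 with it.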

How the data were processed

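The authors aligned reads to the genome of the related fly R. zephyria and counted them, per the labels, with STAR and RSEM, per the submitters' processing notes. No version, build or annotation is named there. The deposited files give expected counts, TPM, length and effective length per feature, per the file headers. The authors' expected counts were rounded to whole numbers for tests. The deposited TPM served to describe levels. RSEM divides reads among similar features, so features with values further than 0.001 from whole are marked as having divided reads.

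edgeR 4.0.16 (R 4.3.3, limma 3.58.1) was used with filterByExpr on the 10 groups (minimum count 10, minimum total 15), which kept 13862 features and all 200 short ones, TMM scaling, a robust quasi-likelihood fit with 1 mean per group over all 50 libraries, and Benjamini-Hochberg adjustment over all tested features. Deviations used log2 CPM with a prior count of 2. The length offset was a natural spline (4 degrees of freedom) on log2 length, fitted per library over all tested features, the short ones included. Lanes and index types are not in the labels and were inferred from run information in the deposited data. DESeq2 1.42.0, RLE scaling, other filters, other list sizes, lane, replicate number and leaving out each library were alternatives. The fits were also run on simulated counts. These had the same spread for all features and no lanes or outlying libraries, and only features with higher counts were changed. That run does not show how well calls are made among the short features. Figures were drawn with Python 3.11.15 and matplotlib 3.10.9.

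Named features are, per pairwise comparison, at most 2 higher and 2 lower by fold change, among those called at a mean log2 CPM of 1 or more. Groups had to be apart or, for the mean host difference, each of the 5 months had to have 1 sign. To these come the 2 smallest adjusted p of the interaction, the 3 most abundant short features and those at the ends of the list. The members, lists and tests were chosen with earlier results of these data known. No test was made over the 200 as a set. The split by count and both fits that pair the offset with lane or with the left-out libraries were chosen after seeing the data. Analyses by gene name or sequence were not made.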

Additional observations from a re-analysis of the deposited data

Results flagged for a closer look

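In 3 of 98 groups of 5 libraries of a named short feature, 1 library lay far from the other 4 by Dixon's ratio, where chance gives about 1 in 20 groups. For gene14162, library 4 of apple at 2 months had 6.77 CPM and the lowest of its group 2.89 CPM. For gene18434, library 5 of hawthorn at 3 months had 0.910 CPM and the highest of its group 3.08 CPM. For gene27440, library 4 of hawthorn at 2 months had 229 CPM and the lowest of its group 114 CPM. The mean host difference of these 3 features kept its call in each of the 50 fits that left out 1 library.

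The host difference changed with month in 11 of the 200 short features by the test of the host-by-month interaction, a share near that of all features, as given above. The cause was not tested.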

How the results depend on the processing

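With lane as a term, counts of called short features were 0 for the mean host difference, at 2, 4, 5 and 6 months, in apple flies from 2 to 6 months and for the interaction, 12 in hawthorn flies from 2 to 6 months, and 2 (apple) and 31 (hawthorn) for any change over months, and the median at 5 months was 0.073. With lane and length offset together (added after seeing the data) the same 5 host comparisons and the interaction gave 0, apple 1, hawthorn 12, any change 2 and 35, and medians were 0.0097 at 5 months, 0.017 in apple and -0.050 in hawthorn flies. The counts of this joint fit stand without shares of all features, so nothing about the short features is read from them. With the length offset alone, counts were 8, 5 and 3 at 2, 5 and 6 months and 6 for the interaction, and medians 0.033 at 5 months and -0.069 in hawthorn flies. With the length slope as a covariate, counts were 41 for the mean host difference (25.7% of all features), 14, 0, 1 and 7 at 2, 4, 5 and 6 months (7.83%, 0.0216%, 2.65% and 2.37%), 25 in apple flies (20.7%), 39 and 18 for any change (29.8% and 18.0%), and 3 for the interaction (1.44%), and medians 0.067 at 4 months and -0.010 in hawthorn flies.

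Without the outlying hawthorn libraries, counts were 10, 0, 21 and 6 at 2, 4, 5 and 6 months, 30 and 27 for any change and 6 for the interaction. With the offset as well (added after seeing the data) they were 13, 0 and 5 at 2, 4 and 6 months, 32 and 21, and 4, with medians of 0.054 at 5 months and -0.092 in hawthorn flies. These counts too stand without shares of all features. Without the single-index libraries, counts were 15 for the mean host difference (9.52% of all features), 7 and 0 at 5 and 6 months (4.69% and 0.0%), 0 in apple and 8 in hawthorn flies (7.17% and 8.88%), 4 for any change in apple flies (12.7%) and 4 for the interaction (1.46%). In lane 7 alone they were 0 at 6 months (0.0154%) and 4 in hawthorn flies (8.27%, median -0.089). With only the groups compared they were 23, 0 and 0 at 2, 4 and 6 months (8.73%, 0.0% and 0.0417%), 32 in hawthorn flies (27.9%) and 25 for any change in apple flies (26.7%); for the mean host difference and the interaction this is the fit already used. DESeq2 called 11, 38, 20 and 4 at 2, 4, 5 and 6 months (6.24%, 13.6%, 9.98% and 2.34% of all features), 29 for any change in apple flies (25.5%) and 31 for the interaction (13.2%). Without a count filter edgeR called 7 and 0 at 5 and 6 months (2.58% and 0.199%), 13 in hawthorn flies (11.97%) and 4 for the interaction (1.61%), and with RLE scaling 0 at 6 months (0.375%).

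The 100 shortest features gave 11 for the mean host difference, 2, 10, 7 and 0 at 2, 4, 5 and 6 months, 7 and 10 in apple and hawthorn flies, 7 and 25 for any change and 5 for the interaction, with a median of -0.013 at 4 months. The 400 shortest gave 54, then 10, 66, 23 and 2, then 34 and 55, then 37 and 141, and 33. The 200 shortest with 10 counts in all 50 libraries gave 47, then 8, 60, 18 and 2, then 36 in hawthorn flies, 23 and 112 for any change, and 31, with medians of -0.52 at 4 and 0.36 at 5 months. The lists of 100 and 400 differ in size, so their counts differ by construction. The list with 10 counts in all 50 libraries has the same size of 200 and a stricter count minimum. Only 85 short features meet that minimum, so this list also reaches longer features, and length and minimum cannot be told apart. For the mean host difference and any change in hawthorn flies, its 47 and 112 exceeded the shares of all features (19.3% and 37.3%). The 27 and 58 of the short features lay below them. Its 36 in hawthorn flies and 23 for any change in apple flies stayed below (20.8% and 20.3%). The shares of all features are those of the report. With a spline in place of the line, the median deviation from the trend in hawthorn flies was -0.020, 0.139 and 0.0036 at 3, 4 and 5 months. Beyond counts fixed by fewer libraries or features, the cause of these moves was not tested. Without 1 library at a time, counts ranged from 23 to 34 for the mean host difference, 0 to 7, 0 to 0, 8 to 52, 1 to 17 and 0 to 4 at 2 to 6 months, 8 to 16 and 13 to 26 in apple and hawthorn flies, 8 to 20 and 33 to 75 for any change, and 2 to 39 for the interaction.

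The labels tie replicate numbers to no shared batch, and 49 of 225 same-numbered pairs had a correlation of deviations over 0.1 (mean 0.0164), so the numbers were not taken as pairs. As a hint from the data, not the design, 18 of 50 libraries correlated best with their own number, where 10 would if the 5 numbers were equal. With the replicate block the counts were 25 for the mean host difference, 5, 0, 25, 12 and 1 at 2 to 6 months, 14 and 19 in apple and hawthorn flies, 16 and 56 for any change and 13 for the interaction. Shares of all features are not given for that fit, so nothing about the short features is read from its counts. No named feature turned its direction, and direction and call were kept in 1031 of 1133 cases. Of these cases 50 per named result left out 1 library, often of a group outside the comparison. The total thus says little about how firm a call is. With lane as a term each named host difference, interaction and change in apple flies lost its call. The median of the 200 changed sign at 4 months (slope as covariate, 0.067), at 6 months (without single-index libraries, 0.053) and in apple flies (offset with lane, 0.017), and in several alternatives for the mean host difference and at 3 months, where it is near 0. Low counts limit precision, with a median SE of 0.35 for the 200 at 2 months.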
